A study of Homo sapiens with 4 samples.

Results

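Translation initiation and elongation factors are the proteins that place a ribosome on the start codon and move it along the message. The factors described here are the 47 genes whose symbols begin with EIF1 to EIF6 (the EIF2AK kinases and the EIF4EBP binding proteins left out), together with EEF1A1, EEF1A2, EEF1B2, EEF1D, EEF1G and EEF2, that had a row in the count tables of all 4 libraries. They were chosen by name from 8568 transcripts in all 4 tables, 1 transcript per gene. Some subunits, among them EIF4E, EIF4A2, EIF2S2, EIF3K and EIF3L, had no such row and were not analysed here.

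The libraries are ribosome profiling libraries of HEK293T, a line derived from human embryonic kidney that carries the SV40 large T antigen. In ribosome profiling, the stretches of mRNA covered by ribosomes (ribosome-protected fragments, RPFs) are sequenced, so a read count reflects both how much of an mRNA there was and how many ribosomes sat on it, and these cannot be told apart without matched RNA-seq, which was not analysed here. The groups were 2 untreated libraries (A and B) and 2 libraries (A and B) from cells given G418 at 500 µg/mL for 24 h, all harvested with cycloheximide in the lysis buffer. G418 is an aminoglycoside that binds the decoding centre of the ribosome and loosens the selection of tRNAs, which lets some ribosomes read through stop codons. The libraries held 5775720 (untreated A), 2302184 (untreated B), 5312495 (G418 A) and 4455448 (G418 B) reads in coding sequences (CDSs), so untreated B was the shallowest. The study calls the libraries of a group biological replicates, and nothing says whether they came from separate cultures. The p-values below therefore measure only the spread between these 4 libraries. Of 6 genes taken as typical of HEK293T cells, 4 were in all tables (VIM, KRT18, NEFM and KRT8), and NES and PAX2 were not. VIM was the highest, at 639 and 658 RPKM untreated, and was lower in G418 (log2 fold change -0.32 ± 0.08, edgeR adjusted p = 0.00902). NEFM had 37.2 and 31.3 RPKM untreated, KRT18 29.4 and 26.7 and KRT8 only 2.13 and 1.45, and these 3 did not pass. RPKM is the deposited read density of the CDS, scaled by its length and by the depth of the library. Of 7 markers of other cell types, the collagen gene COL1A1 was in all tables, at 4.44 and 5.54 RPKM untreated, above KRT8. PTPRC, CD3E, ALB, HBB, GFAP and MYH7 were not in all tables.

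Initiation starts when eIF2 carries the initiator tRNA to the small ribosomal subunit, which eIF1, eIF1A, eIF3 and eIF5 hold in a state that can scan the 5'UTR. The eIF4 proteins bring the capped mRNA to it. eIF1 favours strict choice of the start codon and eIF5 favours commitment, and both are known to control their own synthesis, eIF1 through the poor context of its own start codon and eIF5 through upstream AUGs in its 5'UTR. In elongation, eEF1A delivers aminoacyl-tRNA, the eEF1B subunits recharge eEF1A with GTP, and eEF2 moves the ribosome by a codon. Messages of elongation factors and of some eIF3 subunits begin with a run of pyrimidines (a TOP tract) that couples their translation to growth signalling.

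The factors together took 3.26% and 3.26% of all CDS reads in untreated A and B, and 2.90% and 2.87% in G418 A and B. The share was lower in both G418 libraries than in either untreated one. Read counts per CDS were then compared with edgeR's quasi-likelihood test over 8494 transcripts, with p-values adjusted over all of them and 0.05 as the threshold. Against untreated cells, 11 of the 47 factors fell and 1, EIF5, rose. Of all transcripts tested, 3.21% (273) fell and 5.31% (451) rose. The median log2 fold change was -0.16 over the factors and 0.00246 over all transcripts, and the fitted value was below 0 for 43 of the 47. With library totals in place of TMM scaling, the median of all transcripts moved to 0.11, 887 transcripts rose and 120 fell, and 7 factors fell (EEF1A1, EEF1A2, EEF1G, EEF2, EIF3I, EIF4A1 and EIF6). EIF5 rose under both. Without G418 A or without G418 B, the calls as lower were lost for the factors, as for most transcripts called lower with all 4 libraries. In these fits EEF1A1 (-0.43 and -0.44), EEF2 (-0.46 and -0.48) and EIF6 (-0.56 and -0.46) had log2 fold changes close to those from all 4 libraries. Without untreated A 19 factors were lower, beside 9.42% of all transcripts, and without untreated B 34 were, beside 12.8%, each set holding the same 11.

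**Figure D1:**
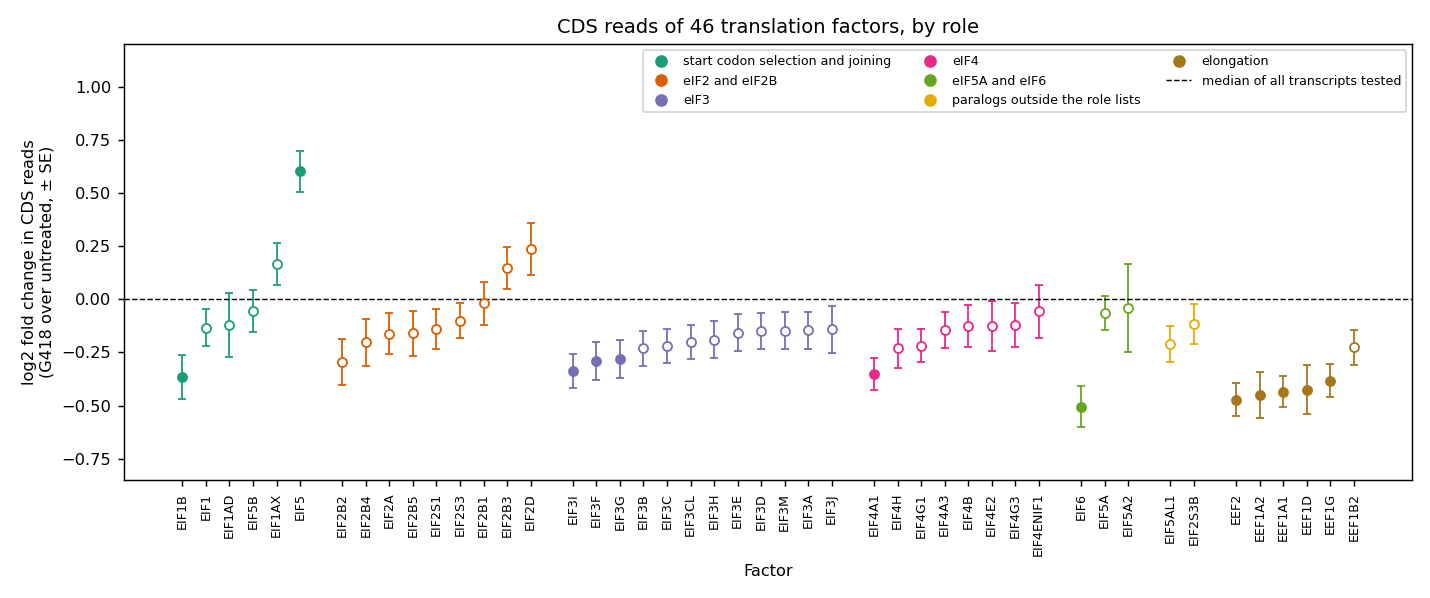
The log2 fold change in CDS reads (G418 over untreated, with its SE from the edgeR fit) is plotted for 46 factors, ordered by role; EIF1AY is not drawn. Filled points passed an adjusted p of 0.05 and open points did not, and the dashed line is the median of all transcripts tested. EIF5 stands at 0.60, above the line, and 5 of the 6 elongation factors are filled, between -0.38 and -0.47.

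Most of the elongation factors fell. Of 6 measured genes 5 passed the test, where 3.21% of all transcripts fell, and the median log2 fold change of the 6 was -0.43. EEF1A1, the main eEF1A of dividing cells, stood at 2099.8 and 1872 RPKM in untreated A and B and at 1598 and 1492 in G418 A and B. Both G418 values lay below both untreated ones, and the fitted log2 fold change was -0.43 ± 0.07 (SE, edgeR adjusted p = 0.000205), to 0.741 of the untreated level. EEF2, the translocase, went from 1375 and 1482 RPKM to 1119 and 1051 (log2 fold change -0.47 ± 0.08, edgeR adjusted p = 0.000161). The groups again did not overlap. EEF1A2, the eEF1A form of muscle and neurons, was present at a far lower level, 71.4 and 82.5 RPKM untreated, and fell to 59.9 and 57.5 (-0.45 ± 0.11, edgeR adjusted p = 0.00675). The abundant and the rare eEF1A gene thus had similar fitted falls, and their difference was not tested. Reads that match both, or one of the many processed copies of EEF1A1, were assigned to 1 place by the authors, so the split between them is uncertain.

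Of the 3 eEF1B subunits, which exchange GDP for GTP on eEF1A, 2 fell. EEF1G stood at 854 and 819 RPKM untreated and at 713 and 638.5 in G418 (-0.38 ± 0.08, edgeR adjusted p = 0.00153), with no overlap. EEF1D went from 233 and 219.6 RPKM to 197 and 157 (-0.42 ± 0.11, edgeR adjusted p = 0.0156), but did not pass with DESeq2 or with library totals. The EEF1D transcript counted has a CDS of 300 nt. Other EEF1D transcripts were not examined, so its values here and below belong to this transcript. EEF1B2 was measured at 581 and 523 RPKM untreated and at 529 and 465 in G418, ranges that overlap, and its log2 fold change of -0.23 ± 0.08 did not pass (edgeR adjusted p = 0.0905).

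**Figure D2:**
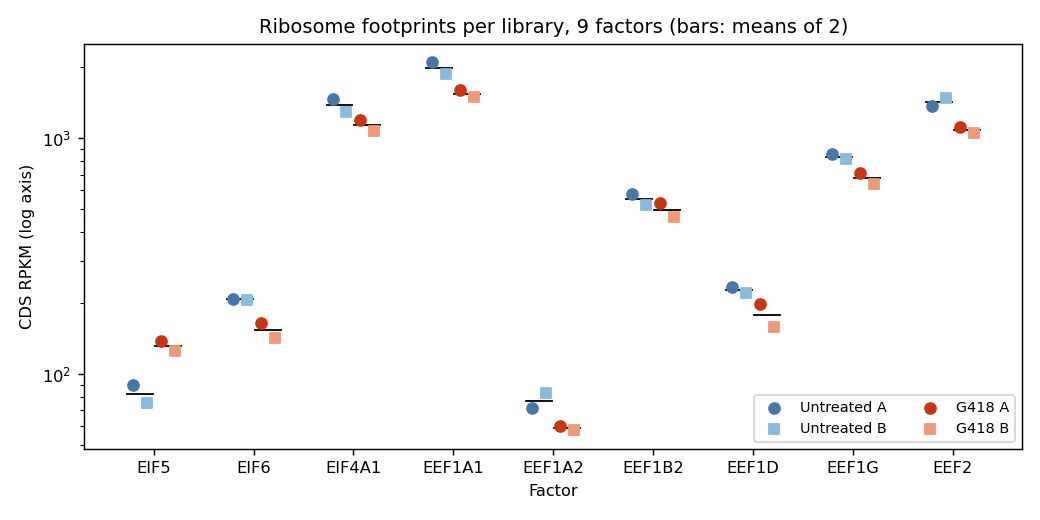
CDS RPKM (log axis) is plotted per library for EIF5, EIF6, EIF4A1 and the 6 elongation factors, with bars at the means of the 2 libraries of a group. For EIF5 both red G418 points lie above both blue untreated points, for EEF1B2 the ranges overlap, and for the other 7 genes both G418 points lie below.

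A list of 10 factors known for TOP tracts (the 6 elongation factors with EIF3E, EIF3F, EIF3H and EIF4B) shares the elongation factors with the group above, so the counts are not separate. Of the 10, 6 fell and none rose, where 3.21% of all transcripts fell and 5.31% rose. Their median log2 fold change was -0.34, against 0.00246 for all transcripts. Among the 6, EEF1D and EIF3F did not pass with DESeq2 or with library totals. The members outside elongation were EIF3F, which fell (-0.29 ± 0.09, edgeR adjusted p = 0.0411), and EIF3E (-0.16), EIF3H (-0.19) and EIF4B (-0.13), which did not pass. The 30 bases around the annotated start site (RefSeq, GRCh38.p14) of the TOP list members that carry such a run are shown here because the name of the list rests on it, read 5′ to 3′ on the gene's own strand, with the pyrimidine run in capitals:
EEF1A1, chr6:73521013-73521042, minus strand: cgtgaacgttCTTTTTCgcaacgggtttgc
EEF2, chr19:3985444-3985473, minus strand: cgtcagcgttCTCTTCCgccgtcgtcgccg
EEF1B2, chr2:206159885-206159914, plus strand: ctcttcgggtCCTTTTTCCTCTCTTCagcg
EIF3F, chr11:7987327-7987356, plus strand: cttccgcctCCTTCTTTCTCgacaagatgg
EIF4B, chr12:53006446-53006475, plus strand: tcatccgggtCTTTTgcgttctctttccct

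The run searched for was a C at the start site or 1 base to either side, followed without a break by at least 4 bases that are each C or T, on the transcribed strand alone. It was found in 8.14% of the 35116 promoters of the table and in at least 1 promoter of 10.2% of its 27305 genes. Of the factor genes, 40 were in the table and 12 (30%) had it, among them 5 of the 6 TOP list genes there. The match describes the letters of the reference and no start site was measured in these cells. Of the 12 factors with the run, 3 fell in CDS reads (EEF1A1, EEF2 and EIF3F) and 9 did not pass, EEF1B2 and EIF4B among them, beside 11 of all 47 factors and 3.21% of all transcripts that fell. Differences between them were not tested.

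EIF5 was the one factor that rose. eIF5 is the GTPase-activating protein of eIF2 and acts when the start codon has been met. Its CDS RPKM was 89.2 and 74.9 in untreated A and B and 138 and 125 in G418 A and B, or 82.1 ± 10.1 against 132 ± 9.36 (SD, n = 2 each). The groups were well apart, and the log2 fold change was 0.60 ± 0.10 (edgeR adjusted p = 0.000126), a 1.52-fold rise. Without G418 A it was 0.59 and no longer passed (edgeR adjusted p = 0.0731), and without G418 B it was 0.62 (edgeR adjusted p = 0.0438). The transcript counted (ENST00000392715.6, chromosome 14, plus strand, start codon at chr14:103335861-103335863 of hg38) has a 5'UTR of 533 nt with 5 upstream AUGs. They are shown with the start codon of the CDS, because they lie where the 5'UTR reads described below were counted. Each line gives 12 bases before the ATG (in capitals) and 6 after it, taken from the GENCODE transcript, and the first number is the distance in nt from that ATG to the start of the CDS:
EIF5 upstream ATG at 441 nt: gacgcgctggggATGgggcca
EIF5 upstream ATG at 349 nt: agcgcggtagccATGgggacc
EIF5 upstream ATG at 256 nt: ctctcttgcttaATGgcaaat
EIF5 upstream ATG at 122 nt: gaaaattttttcATGtcagag
EIF5 upstream ATG at 90 nt: ttgcagtcgtttATGtcatcc
EIF5 start codon of the CDS: taataagccaaaATGtctgtc

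Of these, 4 open short reading frames that close within the 5'UTR (29, 12, 29 and 22 codons), and the frame that opens at 122 nt runs 61 codons and ends after the start of the CDS. Of 35 factor transcripts whose annotated 5'UTR matched the deposited length, EIF5 among them, 7 had any upstream AUG, and EIF2S1 had the most (15), followed by EIF5. The annotated EIF2S1 5'UTR held 0 reads in each library, so nothing here shows that it was used in these cells.

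No other start codon factor passed the test as higher. EIF1, the scanning fidelity factor, was abundant at 1420.1 and 1117 RPKM untreated and 1290.1 and 1144 in G418, with overlapping ranges and a log2 fold change of -0.13 ± 0.09 that did not pass. Its paralog EIF1B fell, from 298 and 276 RPKM to 254 and 215 (-0.37 ± 0.10, edgeR adjusted p = 0.022). EIF1AX, which encodes the scanning factor eIF1A, had 448 and 328 RPKM untreated and 489 and 434 in G418 (0.17 ± 0.10, edgeR adjusted p = 0.328). The ranges of EIF1AX overlapped, and its reads can be shared with the near-identical EIF1AY. EIF1AY had the lowest fitted value of the 47 factors (-0.55 ± 0.31) and did not pass (edgeR adjusted p = 0.294). EIF5B, the GTPase that joins the ribosomal subunits, and EIF1AD, a protein of the eIF1A family, had log2 fold changes of -0.06 and -0.12 and did not pass. The starts of EIF1 and EIF1B are given beside that of EIF1AX, because in the first pair the base 3 before the ATG (in capitals) is a C, where A or G is usual in a strong context:
EIF1: gaatcgtatcgtATGtccgct
EIF1B: cactagtatcgcATGtccact
EIF1AX: gccgccaccgccATGcccaag

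Among the 44 factor transcripts whose CDS length and stop codon matched, this base was an A in 27, a G in 12 and a C in 5 (EIF1, EIF1B, EIF3B, EIF4H and EIF6). Of the 5, EIF1B and EIF6 fell, beside 3.21% of all transcripts, and EIF1, EIF3B and EIF4H did not pass. EIF1B no longer passed with DESeq2 or with library totals.

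None of the 9 measured subunits and partners of eIF2 and its exchange factor eIF2B passed the test, in either direction. EIF2S1, the alpha subunit whose phosphorylation slows initiation under stress, was at 256 and 197 RPKM untreated and at 224 and 210.2 in G418 (-0.14 ± 0.09). Its G418 values lay between the untreated ones. EIF2D, which can deliver tRNA without eIF2, had the highest fitted value of the group at 0.23 ± 0.12, with 20.6 and 19.4 RPKM untreated and 26.5 and 22.9 in G418, and EIF2B3 had 0.15 ± 0.10. Neither passed (edgeR adjusted p = 0.252 and 0.404), although the RPKM ranges of the groups did not overlap for either gene. The other 7 had fitted values below 0, and EIF2B2, the beta subunit of eIF2B, came closest to the threshold, with 73.0 and 63.6 RPKM untreated and 62.3 and 55.6 in G418 (-0.29 ± 0.11, edgeR adjusted p = 0.0821) and no overlap.

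All 12 eIF3 genes (11 subunits and the copy EIF3CL) had a fitted value below 0, from -0.34 to -0.14, as had 4214 of the 8494 transcripts tested, and 3 of them fell, beside 3.21% of all transcripts. eIF3 is the scaffold that holds initiation factors and mRNA on the small subunit. EIF3I went from 714 and 617 RPKM to 581 and 528 (-0.34 ± 0.08, edgeR adjusted p = 0.00631), EIF3F from 188 and 175 to 159 and 154, and EIF3G from 301 and 319 to 275 and 261 (-0.28 ± 0.09, edgeR adjusted p = 0.0468). EIF3F and EIF3G were close to the threshold, and neither passed with DESeq2 or with library totals. EIF3A, the largest subunit, stood at 139 and 108 RPKM untreated and 123 and 111 in G418 (-0.15 ± 0.09), with overlap, and did not pass. EIF3C and EIF3CL are near-identical copies whose reads cannot be separated with confidence, and they had log2 fold changes of -0.22 and -0.20.

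Of 8 eIF4 genes, EIF4A1 fell, where 3.21% of all transcripts did. eIF4A1 is the RNA helicase that unwinds the 5'UTR, and it was among the most heavily occupied factors, at 1461 and 1295 RPKM untreated and 1198 and 1075 in G418 (-0.35 ± 0.08, edgeR adjusted p = 0.0027). The groups did not overlap. EIF4G1, the scaffold that joins cap-binding protein, helicase and poly(A)-binding protein, was at 175 and 168 RPKM untreated and 159.7 and 149.8 in G418 (-0.22 ± 0.08) and did not pass (edgeR adjusted p = 0.0787). Its paralog EIF4G3 had a log2 fold change of -0.12 ± 0.10 at 27.0 and 20.4 RPKM untreated.

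EIF6, which keeps the large subunit from joining too early, had the largest fall of the factors that passed with all 4 libraries. It was at 208 and 205 RPKM untreated and at 164 and 142 in G418 (-0.51 ± 0.10, edgeR adjusted p = 0.000848), to 0.704 of the untreated level. Without untreated A, EEF1A2 had -0.63 and EEF2 -0.58, against -0.56 for EIF6. Without G418 A, EIF6 had -0.56 and EEF2 -0.46, so the order depends on the libraries used. EIF5A, which carries hypusine and helps ribosomes past difficult peptide bonds, had the highest RPKM of the factors in each library except untreated B, where EEF1A1 was higher, with 2178 and 1842 RPKM untreated and 2126 and 1914 in G418. These overlap, and the log2 fold change of -0.07 ± 0.08 did not pass. It was 0.04 with library totals. EIF5A shares reads with the near-identical EIF5AL1, and its paralog EIF5A2 was at 22.4 and 15.6 RPKM untreated (-0.04 ± 0.21).

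Among 43 other genes of the pathway, named for regulating or modifying these factors, 27 were in all tables. Of these, 2 (beside 5.31% of all transcripts) rose and 1 (beside 3.21%) fell, shares near those backgrounds, and the median log2 fold change was -0.00492. DENR, which with MCTS1 frees small subunits after termination and lets them initiate again, rose from 159 and 121 RPKM to 215 and 192 (0.45 ± 0.11, edgeR adjusted p = 0.00709), with no overlap. MCTS1 had -0.10 ± 0.09 and did not pass. DNAJC24, which takes part in making the diphthamide of eEF2, rose from 10.5 and 7.40 to 19.4 and 15.9 RPKM (0.84 ± 0.25, edgeR adjusted p = 0.0325). GCN1, which activates the eIF2 kinase GCN2 on stalled ribosomes, fell from 33.8 and 34.5 to 28.4 and 27.7 RPKM (-0.35 ± 0.09, edgeR adjusted p = 0.00981). EIF4EBP1, the repressor of cap binding, stood at 198 and 221 RPKM untreated and 233 and 227 in G418 and did not pass (0.08 ± 0.11).

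Reads in 5'UTRs were next set against CDS reads of the same transcript, which asks whether ribosomes upstream of the start codon changed relative to those on the CDS. Over the factors together there were 2.33 and 2.58 5'UTR reads per 100 CDS reads in untreated A and B and 2.22 and 2.25 in G418 A and B. Over all transcripts the values were 4.84, 5.57, 4.71 and 4.84. Untreated B had the highest value in both sets. The comparison was fitted with edgeR, with CDS reads as the offset, over 3656 transcripts with at least 20 5'UTR reads in the 4 libraries. Of 31 factors tested, 1 (EIF5) was lower and 0 were higher, and of all transcripts 1.7% were lower and 0.0274% (1 transcript) higher. At an unadjusted p under 0.05, 9 of the 31 factors (29%) and 506 of the 3656 transcripts (13.8%) passed, and DESeq2 called the same single gene. The median log2 change was -0.32 over the factors and -0.16 over all transcripts. Without untreated B these were -0.10 and -0.04, without untreated A -0.42 and -0.30, and without G418 A -0.18 and -0.16.

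EIF5 had the highest untreated ratio of 5'UTR reads to CDS reads, followed by EIF1AD. It held 830 and 306 5'UTR reads beside 1006 and 368 CDS reads in untreated A and B, and 658 and 542 beside 1464 and 1211 in G418 A and B. That is 82.5 and 83.2 5'UTR reads per 100 CDS reads untreated and 44.9 and 44.8 in G418. Replicates differed by less than 1 read per 100, and the groups were far apart. The log2 change in the ratio was -0.88 ± 0.09 (edgeR adjusted p = 0.000191), to 0.542 of the untreated ratio. On the authors' RPM scale, which divides by the depth of the library, EIF5 5'UTR reads were 92.9 and 78.7 untreated and 78.5 and 70.7 in G418, while CDS reads were 113 and 94.6 untreated and 175 and 158 in G418. The ratio and the CDS change described above use the same CDS reads and so are not separate evidence. EIF5 was lower under each alternative run, with log2 changes of -0.89 to -0.88.

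**Figure D3:**
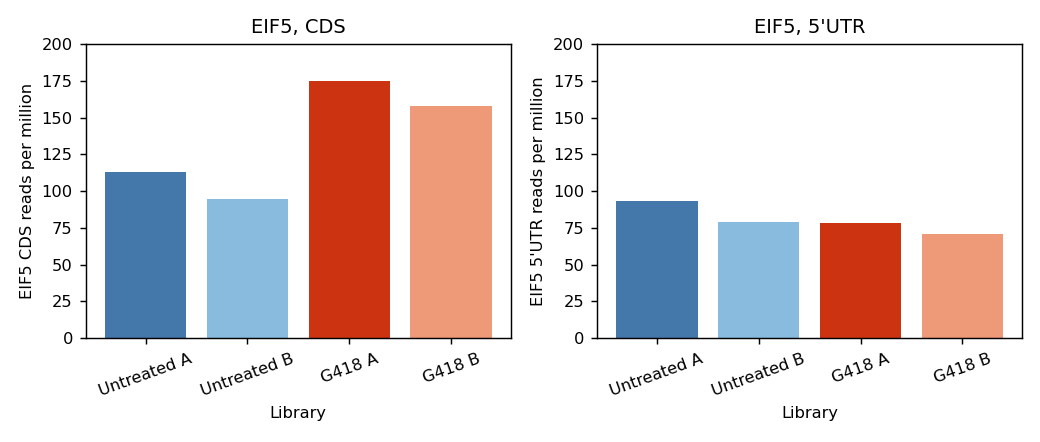
EIF5 reads on the RPM scale are drawn as bars for the CDS and the 5'UTR in each of the 4 libraries, on axes that start at 0. The CDS bars rise from 113 and 94.6 to 175 and 158, and the 5'UTR bars go from 92.9 and 78.7 to 78.5 and 70.7.

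The next highest ratios also belonged to start codon factors and to EIF5A. EIF1AD had 75.3 and 60.5 5'UTR reads per 100 CDS reads untreated and 58.5 and 63.7 in G418, with overlap, although its 5'UTR has no AUG. EIF1AX had 23.2 and 38.4 untreated and 21.6 and 21.96 in G418. Both G418 values lay below the untreated ones, but the untreated libraries differed from each other by more than the groups did, and the change of -0.47 ± 0.19 did not pass (edgeR adjusted p = 0.264). EIF5A had 11.9 and 14.1 untreated and 11.3 and 10.6 in G418 (-0.24 ± 0.10, edgeR adjusted p = 0.264), and EIF1B had 12.5 and 11.4 untreated and 10.0 and 13.7 in G418. Without untreated A, EIF1, EIF1AX, EIF3G, EIF3M and EIF5A passed as lower beside EIF5, and EIF4G3 as higher, beside 9.76% of all transcripts lower. Without untreated B, EEF1A1 and EIF2B3 passed as lower beside EIF5, with 4.43% of all transcripts lower, so the calls other than EIF5 turn on which untreated library is used. With all 4 libraries EIF3M had 1.06 and 2.25 reads per 100 untreated and 0.553 and 0.581 in G418. It missed the threshold (-1.40 ± 0.39, edgeR adjusted p = 0.0918). EIF3M passed as lower in a fit with a term for the letters A and B, which share only a label. EIF4G3 had 3.33 and 2.13 untreated and 6.11 and 5.48 in G418 (0.98 ± 0.33, edgeR adjusted p = 0.175).

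Among the elongation factors EEF1D and EEF1B2 had the highest 5'UTR ratios and EEF1G the lowest. EEF1D had 4.14 and 8.33 5'UTR reads per 100 CDS reads untreated and 4.07 and 5.28 in G418, and EEF1B2 had 4.42 and 6.25 against 4.48 and 4.87. Both overlap and neither passed. EEF1G had 0.102 and 0.270 untreated and 0.235 and 0.159 in G418. EEF2 had 0.791 and 0.675 5'UTR reads per 100 CDS reads untreated and 0.738 and 0.692 in G418, which overlap. EEF1A1 had 2.40 and 1.91 untreated and 1.58 and 1.60 in G418 (-0.45 ± 0.14), and did not pass (edgeR adjusted p = 0.133). EIF2S1 had 0 reads in each library over 754 counted 5'UTR nt, although its transcript has 15 upstream AUGs, and EIF4A1 had 0 over 11 nt. The 5'UTR counted is that of 1 annotated transcript per gene, and other start sites were not examined.

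**Figure D4:**
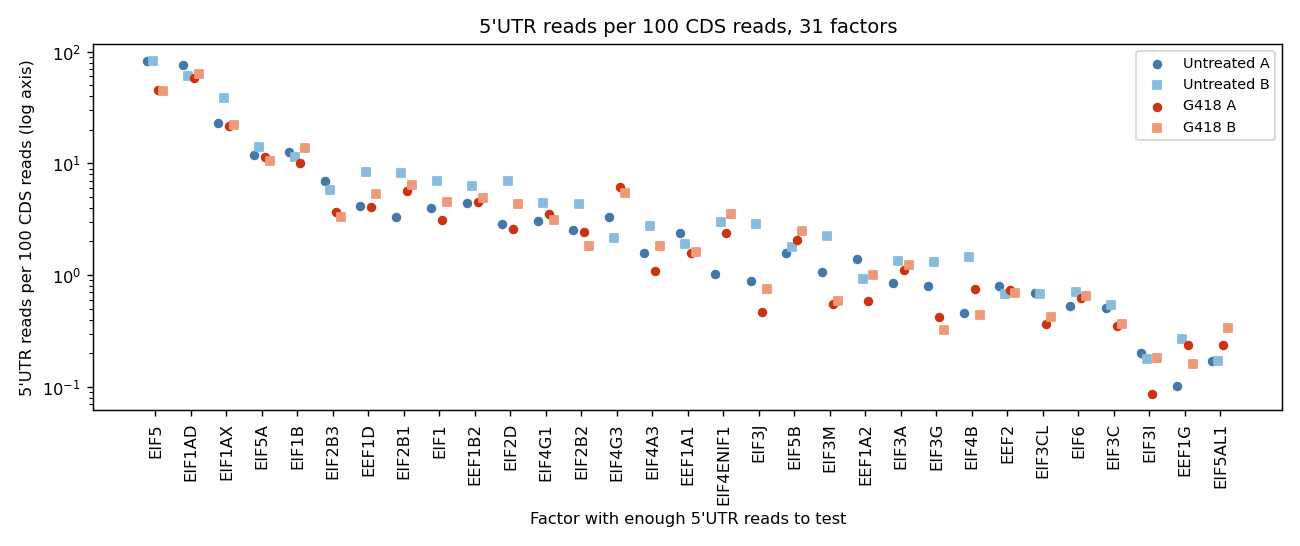
5'UTR reads per 100 CDS reads (log axis) are plotted for the 31 factors tested, in order of the untreated mean, with a point per library. EIF5 and EIF1AD stand highest, and for EIF5 the untreated points (82.5 and 83.2) are clear of the G418 points (44.9 and 44.8).

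Ribosomes past the normal termination codon (NTC) were measured with the ribosome readthrough score (RRTS), which sets the density of reads from the NTC up to the next stop codon of the same frame in the 3'UTR (the 3'TC) against the CDS density, given here in percent. Pooled over the 45 factors that met the study's minimum of reads in each condition, RRTS was 1.17% and 1.08% in untreated A and B and 12.2% and 12.5% in G418 A and B. Pooled over 6509 transcripts passing the same filter it was 1.99%, 1.81%, 15.8% and 15.1%. The factors held 127 and 47 reads in these windows untreated and 1060 and 905 in G418. EEF1A1 and EEF2 supplied much of them, and without both genes RRTS was 1.62% and 1.72% untreated and 12.6% and 14.3% in G418.

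Of 31 factors with at least 10 reads before the first 3'TC, 27 had a higher RRTS in G418 by edgeR and 0 a lower one. Of the 2827 transcripts tested, 82.6% were higher. Among the 31, EEF1D and EIF2B3 had no 3'TC in frame, and 51 and 161 nt of their 3'UTRs were counted. The median log2 change was 3.31 over the factors and 3.18 over all transcripts. These counts and medians are descriptions, since 27 of the 31 reached 10 reads only with the G418 reads counted in, so the filter itself favours factors that are higher in G418. The 16 factors with fewer reads were not tested. With the reads of a group pooled, RRTS was higher in G418 for 10 of them and lower for 2 (EIF2B5 and EIF4G3), and 4 had 0 reads in each library.

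EEF2 had similar values in both libraries of a group. Its window held 4 and 2 reads in untreated A and B and 131 and 111 in G418 A and B, for an RRTS of 0.302% and 0.321% untreated and 12.9% and 12.8% in G418. The log2 change was 5.32 ± 0.34, given as a description, since EEF2 reached 10 reads only with its G418 reads. EEF1A1 had 27 and 5 reads untreated and 289 and 199 in G418, an RRTS of 0.750% and 0.358% against 11.2% and 9.06% (4.00 ± 0.21, edgeR adjusted p = 1.9e-79). EEF1G had 1.75% and 2.09% untreated and 11.2% and 8.17% in G418, on 3 untreated reads in all. Its call as higher was lost with DESeq2, without untreated A and without G418 A. EEF1D had 0 untreated reads and 7 and 5 in G418. With 3 reads over both untreated libraries taken as the floor, the fold was at least 4.10. EEF1G and EEF1D also reached 10 reads only with their G418 reads, so their values are descriptions and not evidence of a rise. Without G418 A EEF1D no longer passed.

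EIF4A1 had 1 and 0 reads untreated and 58 and 75 in G418, an RRTS of 0.170% and 0% against 12.8% and 20.2%. With pooled reads the ratio was 131 (exact 95% interval 23.2 to 5233). EIF6 had 0 and 1 reads untreated and 41 and 40 in G418, a ratio of 87.3 (exact 95% interval 15.2 to 3492), and EIF5A had 3 and 2 against 76 and 45, from 0.428% and 0.776% to 11.8% and 8.52%. EIF4H, which assists eIF4A, had 0 untreated reads and 36 and 40 in G418, at least 22.8-fold higher. EIF2S1 had 0 untreated reads and 12 and 13 in G418, at least 7.29-fold higher. Intervals and floors cover counting error alone. The stop contexts of these genes are shown because the window counted begins there. All of these genes except EEF1A1 reached 10 reads only through G418. Their ratios, intervals and floors are therefore descriptions and not evidence of a rise. They also say nothing of 1 stop codon against another. Each line gives 9 bases before the NTC, the NTC in capitals and 15 bases after it:
EEF2: gacaaattgTAGgcggcccttcctgca
EEF1A1: aaggctaaaTGAatattatccctaata
EIF4A1: gacctcatcTGAggggctgtcctgcca
EIF6: agcctcaccTGAgtcaccttccaagtt
EIF4H: gagcaagaaTGAgcctgcggttgggag
EIF2S1: gctgaagatTAActttgtgggaaacag
EIF5A: atggcaaaaTAActggctcccagggtg

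These NTCs lie at chr19:3976554-3976556 (EEF2), chr6:73517810-73517812 (EEF1A1), chr17:7578484-7578486 (EIF4A1), chr20:35279197-35279199 (EIF6), chr7:74195306-74195308 (EIF4H), chr14:67383438-67383440 (EIF2S1) and chr17:7311638-7311640 (EIF5A) of hg38. In the frame of the CDS the first 3'TC follows after 37 codons in EEF2, 65 in EEF1A1, 16 in EIF4A1, 75 in EIF6, 44 in EIF4H, 8 in EIF2S1 and 13 in EIF5A.

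By stop codon, the median RRTS in G418 with the reads of both libraries pooled was 15.8% over 25 factors with UGA, 10.9% over 17 with UAA and 12.8% over 3 with UAG. Over all transcripts it was 26.0%, 13.8% and 19.2%. The median was thus highest for UGA in both sets, with no test applied and with many factors resting on a few reads.

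The 5 highest RRTS values in G418 belonged to EIF2B2 (78.0% and 152%), EIF3J (68.3% and 63.3%), EIF3F (49.9% and 56.6%), EIF2S3 (53.4% and 46.95%) and EIF2B1 (40.9% and 51.7%). In untreated A and B, EIF2B2 had 14.2% and 15.0% on 5 and 2 reads, and EIF3J 3.72% and 24.1% on 2 and 4. EIF2S3 had 13.3% and 14.4% on 5 and 2 reads, and EIF2B1 3.03% and 0% on 1 and 0. EIF2B2 above 100% in G418 B means a window denser than the CDS, on 35 reads over 54 nt. EIF3F had 1 and 0 untreated reads and 22 and 22 in G418, a pooled ratio of 41.4 (exact 95% interval 7.05 to 1671). All 5 genes met the minimum of reads for testing only through G418. Their values, and the ratio and interval of EIF3F, are therefore descriptions and not evidence of a rise. EIF2S3 shares reads with the near-identical EIF2S3B, and its window is 12 nt long.

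By the mean of both G418 libraries, the 3 lowest values among factors tested were all of elongation factors. They were EEF1A2 (6.04% and 6.88%), EEF1D (8.29% and 8.13%) and EEF1G (11.2% and 8.17%). This ranking leaves out the 16 factors with fewer than 10 reads, and that filter can remove low values. With G418 reads pooled, some of the 16 were lower, such as EIF5AL1 (0.108%) and EIF1 (0.340%). Others were higher, such as EIF2D (34.5%). The means of EEF1G (9.66%), EIF1AX (9.88%) and EIF3H (9.90%) were close together. The 4 factors that did not pass were EEF1A2, EEF1B2, EIF3H and EIF5. EEF1B2 had 12.04% and 10.2% untreated and 17.9% and 15.2% in G418 (0.53 ± 0.45, edgeR adjusted p = 0.261), so its untreated level was already high. EIF3H had 6.55% and 6.09% against 11.9% and 7.88% (0.63 ± 0.72), and EEF1A2 had 3.56% and 2.36% untreated (1.01 ± 0.70). EIF5 had 1 and 0 reads untreated and 7 and 4 in G418 (2.32 ± 1.27, edgeR adjusted p = 0.0786). Over its whole 3'UTR EIF5 had 10 and 4 reads untreated and 14 and 12 in G418, and the log2 change per CDS read was -0.07 ± 0.54 (edgeR adjusted p = 0.911).

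**Figure D5:**
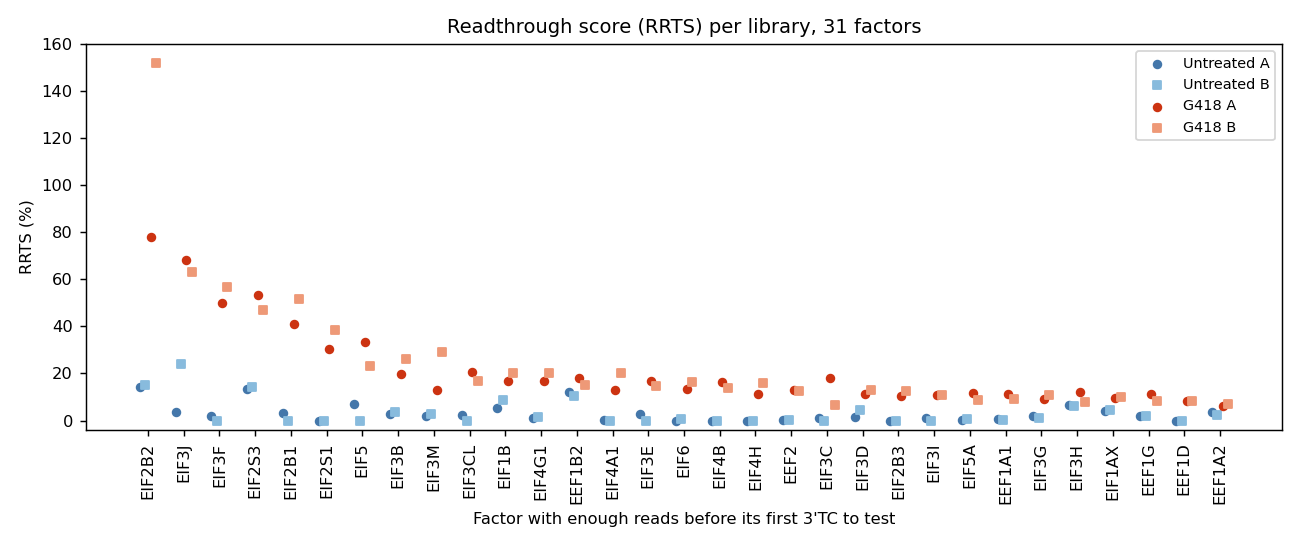
RRTS in percent is plotted for the 31 factors with at least 10 reads before the first 3'TC, in order of the G418 mean, with a point per library. Most of these factors reached 10 reads only through their G418 reads. The G418 points run from EIF2B2 (78.0% and 152%) down to EEF1A2 (6.04% and 6.88%).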

How the data were processed

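Per the labels and the study's methods, reads were deduplicated by sequence and molecular identifier, aligned to hg38 with STAR guided by GENCODE version 30 (a read matching several places kept 1 alignment), and 28 to 35 nt footprints were assigned to transcripts by ribosomal A site. The deposited tables give raw counts per 5'UTR, CDS and 3'UTR, the same as RPM, RPKM, RRTS as a ratio, and a 5'UTR density that can be negative (a score, not used). The authors left out bases next to start and stop codons. Deposited RPM values were whole multiples of 1 read (100% within 0.01 read, 4 libraries), and the recovered reads were used for 5'UTR and RRTS tests. Deposited CDS counts, used for the CDS test, were 1 below them in 1.30%, 0.113%, 99.9% and 38.0% of transcripts.

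CDS counts were tested with edgeR 4.0.16 (TMM, filterByExpr, quasi-likelihood). 5'UTR and 3'UTR reads were tested with the log of CDS reads plus 0.5 as an offset, DESeq2 1.42.0 serving as an alternative. Scripts were tested on simulated data. Benjamini-Hochberg adjustment ran over all transcripts. RPKM values are the authors'. The factors, lists and named genes were chosen with earlier results of these data known. Named genes were 9 core factors, the 5 largest rises and falls in CDS reads that agree in sign from A to A and B to B (4 rises qualified), the 5 highest 5'UTR ratios, the 5 highest and 3 lowest RRTS, genes past the 5'UTR test and paralog pairs. Others named were picked after their values were seen, or belong to a list. Sequences come from GENCODE version 44, where 44 of 46 factor transcripts matched the deposited CDS length and stop codon and 35 the 5'UTR length, and from RefSeq. Alternatives were DESeq2, library totals, filters, counts against recovered reads, the whole 3'UTR, leaving out each library and a replicate block, with counts lacking near-identical copies added after the data were seen.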

Additional observations from a re-analysis of the deposited data

How the results depend on the processing

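Of the 47 factors, 11 fell and 1 rose in CDS reads with 4 libraries. DESeq2 and library totals each kept 7 falls (losing EEF1D, EIF1B, EIF3F and EIF3G) and EIF5, and over all transcripts they gave 108 rises with 129 falls and 887 with 120, against 451 with 273. The cause was not tested. No filter, recovered reads and leaving out 8 near-identical copies kept all 12 calls. Leaving out each library in turn gave 0 to 34 falls and 0 to 2 rises, with 0 falls without either G418 library. A lone library is then assumed to vary like the others. Without either G418 library, most falls over all transcripts were lost too. EIF5A changed sign with library totals (0.04), and EIF2S1 without untreated A (0.00191, against -0.25 without untreated B). For 5'UTR reads per CDS read, leaving out a library gave 1 to 6 lower factors and 0 to 1 higher, and EIF1AD (0.02, against -0.3 without untreated B) and EIF1B (0.04) changed sign without untreated A, as EIF1B (0.19, against -0.26 without G418 B) did without G418 A. For RRTS, DESeq2 kept 21 of 27 (48.5% of all transcripts were higher, against 82.6%), at least 3 reads gave 28 of 38 tested (53.7%), at least 30 reads 18 of 19 (94.9%), the whole 3'UTR 31 of 38 (70.3%), and leaving out a library 22 to 27 of 31 (52.9% to 80.1%). With near-identical copies left out, 22 of 26 were higher. Medians over factors in place of pooled values gave an RRTS of 0.594% untreated and 13.2% in G418, and 1.05 and 0.638 5'UTR reads per 100 CDS reads, against pooled means of 1.13%, 12.4%, 2.45 and 2.24. The letters A and B share only a label. The A minus B deviations of the groups correlated at 0.137. The replicate block gave 16 falls (the 11 with EEF1B2, EIF2B2, EIF3B, EIF3C and EIF4G1) and 1 rise in CDS reads (452 and 618 of all transcripts). It also gave 2 lower 5'UTR ratios (EIF5 and EIF3M, beside 2.3% of all transcripts) and 27 higher RRTS (65.5% of all transcripts). The RRTS of 16 factors with fewer than 10 reads was not tested, and untreated B, the shallowest library, gives the least precise values.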

Other observations

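Within pairs of related factors, the fitted log2 changes in CDS reads lay side by side as follows. EIF1B had -0.37 ± 0.10 and EIF1 -0.13 ± 0.09, EEF1A2 had -0.45 ± 0.11 and EEF1A1 -0.43 ± 0.07, and EIF4G1 had -0.22 ± 0.08 and EIF4G3 -0.12 ± 0.10. No difference within a pair was tested. EIF1 had 1 read before its first 3'TC in the 4 libraries together, in G418 B, at an RRTS of 0% in G418 A and 0.760% in G418 B, where its CDS was at 1144 RPKM. A count of 0 in both untreated libraries allows an RRTS of up to 1.17% for EIF1. The EIF1 transcript counted has a CDS of 366 nt, against 342 nt for EIF1B. Other EIF1 transcripts were not examined, so these values belong to the stop codon of this transcript alone. The window is 15 nt long, and over the whole 3'UTR EIF1 had 23 and 7 reads untreated and 40 and 43 in G418, higher per CDS read in G418 (log2 change 1.26 ± 0.31, edgeR adjusted p = 0.000176). Its stop context is printed for comparison, with the NTC in capitals:
EIF1: tgtataatgTAAccatttggggtccgc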
